A study of Mus musculus with 2 samples.

Results

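The 10 genes described here were Trp53, which encodes the transcription factor p53, and 9 genes known as its targets, Cdkn1a, Mdm2, Ccng1, Eda2r, Zmat3, Sesn1, Phlda3, Bbc3 and Trp53inp1. They were taken by symbol from the 32285 genes of the count matrices, and all 10 were found. Nuclei of interscapular brown adipose tissue (BAT) from 8-week-old male mice were measured by single-nucleus RNA-seq in 1 WT and 1 KO library. The WT mice were Srsf1 flox/flox littermates that lacked Cre, and the KO mice were Adipoq-Cre; Srsf1 flox/flox, with the splicing factor gene Srsf1 floxed in both genotypes. The Cre line was on C57BL/6J and ran from the adiponectin promoter, which is active in mature adipocytes. How many mice were pooled per library is not given in the sources used here. With 1 library per genotype no test was possible, and genotype and library cannot be told apart.

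p53 is held at a low level by the ubiquitin ligase Mdm2, whose own gene is a p53 target, so that the pair forms a negative feedback loop. When DNA damage, ribosomal stress or other insults loosen this hold, p53 binds DNA as a tetramer and activates genes for cell-cycle arrest, apoptosis, DNA repair and metabolic restraint. p53 is controlled largely at the level of the protein, which nuclear RNA does not measure.

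Depth and identity were checked first. The WT library held 93102814 UMIs (unique molecular identifiers, 1 per captured RNA molecule) in 12846 barcodes and the KO library 80090208 in 11495, with medians of 3439.5 and 4363 UMIs, and 52 barcodes occurred in both. After filtering, 12771 WT and 11378 KO nuclei were kept, or 24149 of 24341 barcodes. The study kept fewer of them after its own quality control. Nuclei were put into classes by the summed UMIs of marker lists, which gave 2798 WT and 1137 KO adipocytes, 218 and 1055 adipose stem and progenitor cells (ASPCs), 1890 and 1095 endothelial, 463 and 3567 immune, and 544 and 308 mural nuclei. Nuclei in which no list both led by at least 2 times and held at least 3 marker UMIs stayed unassigned, 51.2% of WT and 35.3% of KO nuclei, of which 1097 and 329 had the lead but too few marker UMIs. The classes are ranges of a score, since 2015 of the WT and 624 of the KO adipocytes led by less than 4 times. Adipocyte markers summed to 16970 CPM (UMIs per 1000000 UMIs of the class) in WT and 14999 in KO adipocytes, and to between 1802 and 9018 CPM in the other 4 classes, so that adipocyte RNA was counted there too. The part of that RNA in the levels of the 10 genes was not tested. Srsf1, the targeted gene, stood at 183 CPM in WT and 56.3 CPM in KO adipocytes, with a log2 ratio of -1.70 (-1.84 to -1.57), and the counts do not separate its floxed part from the rest. It was also lower in KO in the other 4 classes, with log2 ratios from -0.87 to -0.56.

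Promoter sequences from RefSeq (GRCm38.p6, 250 bases before to 50 bases after a start site) covered 8 of the 10 genes in 12 windows. The p53 response element consensus, 2 copies of a decamer of 10 bases with 0 or 1 base between them, was searched with at most 1 mismatch, and the decamer reads the same on both strands. It was found in 2 of the 12 windows and in 0.177% of all 32851 windows, and a single decamer without mismatch in 5 of the 12 windows and 8.36% of all. The matches lay at the upstream start of Cdkn1a (chr17:29090729-29091028, plus strand), 51 bases before the start, and at Ccng1 (chr11:40755237-40755536, minus strand), 195 bases before it. The sequences of these windows, with the match in capitals, stand here beside the windows of Trp53 (chr11:69580109-69580408, plus strand) and Eda2r (chrX:97377160-97377459, minus strand), which held no such match and whose genes differed far more between WT and KO. The windows of Mdm2, Sesn1, Phlda3 and Bbc3 held no such match either. Of these genes, Sesn1 and Phlda3 differed little in adipocytes, with log2 ratios of 0.15 and 0.41, so a missing match did not go with a large ratio throughout. Elements farther away or inside introns lie outside these windows, so the missing letters say nothing of binding by p53.
Cdkn1a: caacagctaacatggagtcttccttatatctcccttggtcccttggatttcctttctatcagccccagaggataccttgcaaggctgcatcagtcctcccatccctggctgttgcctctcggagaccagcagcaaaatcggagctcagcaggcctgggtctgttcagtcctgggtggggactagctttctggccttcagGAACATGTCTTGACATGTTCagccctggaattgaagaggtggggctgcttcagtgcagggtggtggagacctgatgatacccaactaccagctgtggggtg
Ccng1: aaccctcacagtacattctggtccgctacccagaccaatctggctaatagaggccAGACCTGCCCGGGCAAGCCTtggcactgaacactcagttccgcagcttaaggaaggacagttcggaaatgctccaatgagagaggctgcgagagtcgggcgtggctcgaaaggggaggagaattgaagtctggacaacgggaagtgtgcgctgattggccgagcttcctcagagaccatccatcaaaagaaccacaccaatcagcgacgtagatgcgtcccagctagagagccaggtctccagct
Trp53: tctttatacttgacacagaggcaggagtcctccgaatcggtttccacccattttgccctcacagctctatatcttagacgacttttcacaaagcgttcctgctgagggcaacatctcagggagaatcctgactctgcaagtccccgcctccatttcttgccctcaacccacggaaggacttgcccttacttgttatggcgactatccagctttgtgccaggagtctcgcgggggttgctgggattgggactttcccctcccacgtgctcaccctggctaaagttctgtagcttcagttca
Eda2r: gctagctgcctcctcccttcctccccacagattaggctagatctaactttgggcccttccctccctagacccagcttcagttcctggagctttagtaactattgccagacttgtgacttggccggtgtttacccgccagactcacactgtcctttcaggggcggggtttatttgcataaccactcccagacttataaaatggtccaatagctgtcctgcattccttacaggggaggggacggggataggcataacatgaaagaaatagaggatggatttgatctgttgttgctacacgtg

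In adipocytes, 5 of the 10 genes were at least 2-fold higher in KO (Trp53, Eda2r, Zmat3, Bbc3 and Trp53inp1), and none was at least 2-fold lower. Among the 13702 genes with at least 50 UMIs over both libraries in that class, 17.4% were at least 2-fold higher and 17.3% at least 2-fold lower. The median log2 ratio of KO to WT was 1.05 over the 10 genes and 0.04 over all of these genes. The interval of the ratio lay above 0 for 9 of the 10, Ccng1 being the exception. The share of all genes with such an interval is not given here. Among 24 measured regulators of p53, described below, it lay above 0 for 13 and below 0 for 2. All intervals are exact 95% intervals that cover counting error only, since nuclei of 1 library are not replicates.

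**Figure D1:**
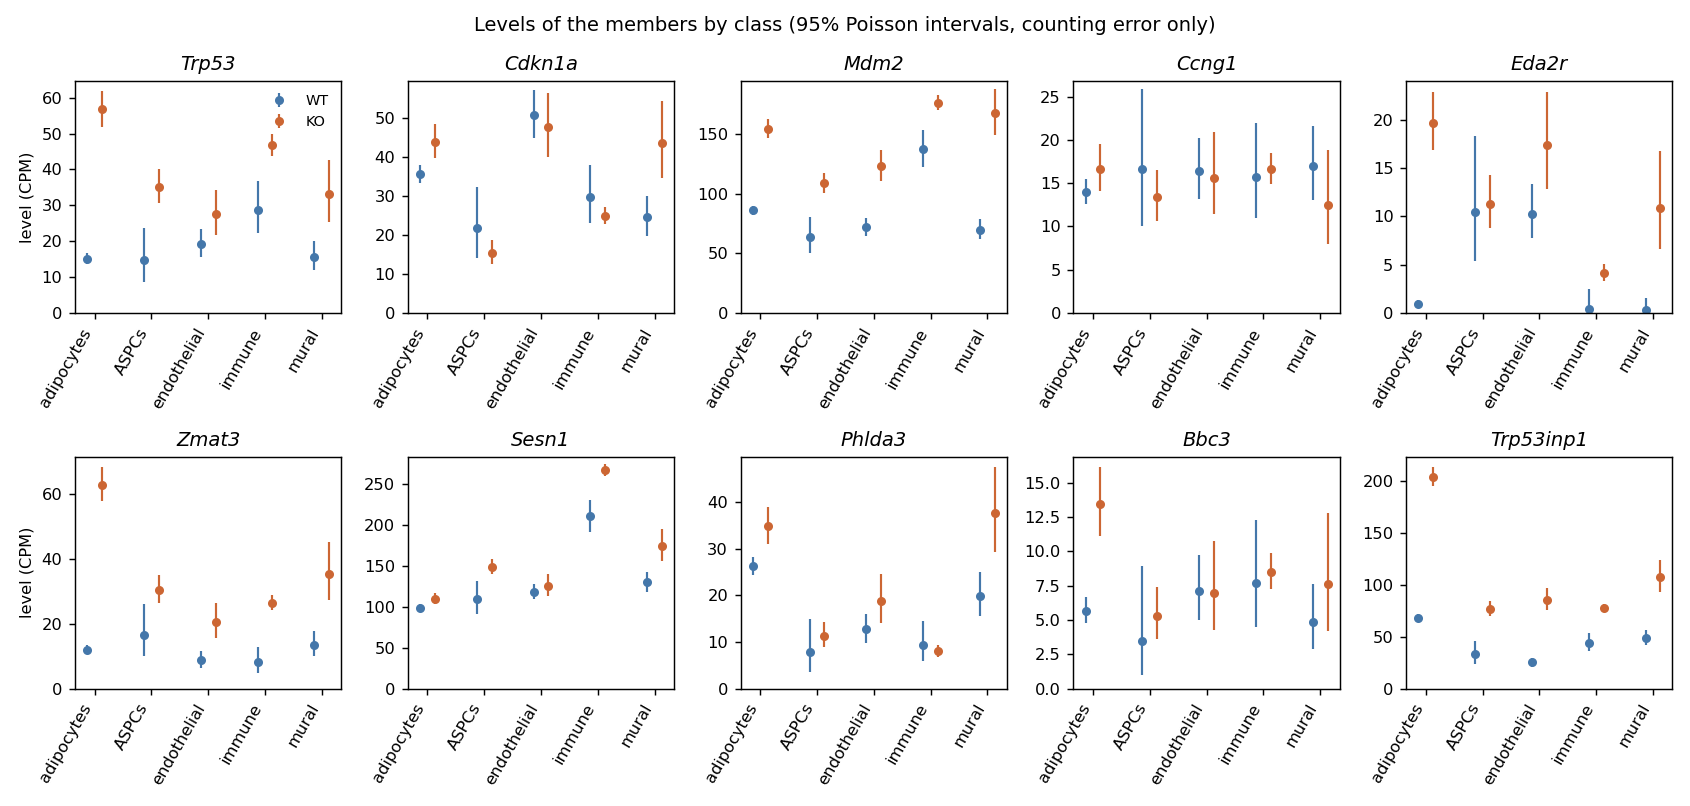
Levels of the 10 genes (y axis, CPM, each panel with its own scale from 0) in the 5 classes (x axis) of the WT library (blue) and the KO library (orange), with 95% Poisson intervals. In adipocytes Trp53, Eda2r, Zmat3, Bbc3 and Trp53inp1 stand well apart between the libraries, while Ccng1 lies between 12.5 and 16.9 CPM in all classes.

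Trp53 itself (ENSMUSG00000059552, chromosome 11 from 69580359 to 69591873, plus strand) had 383 UMIs in WT and 498 in KO adipocytes. Its level was 15.1 CPM (13.7 to 16.7) in WT and 56.8 CPM (51.9 to 62.0) in KO, 3.75-fold higher, with a log2 ratio of 1.91 (1.71 to 2.10). Nuclei with at least 1 Trp53 UMI made up 11.5% of the WT and 28.1% of the KO adipocytes, at median depths of 7131 and 6366 UMIs, and in 1.36% and 4.92% after thinning each nucleus to 1000 UMIs. In WT, the levels of Trp53 in adipocytes, ASPCs, endothelial and mural nuclei had overlapping intervals, between 14.8 and 19.2 CPM, and immune nuclei were highest at 28.8 CPM (22.2 to 36.8), still overlapping with endothelial nuclei. The order was another in KO, where adipocytes were highest, apart from immune nuclei at 46.8 CPM (43.8 to 49.9), and those apart from ASPCs at 35.1 CPM (30.6 to 40.0). Log2 ratios were 1.24 (0.53 to 2.05) in ASPCs, 1.09 (0.55 to 1.64) in mural, 0.70 (0.33 to 1.09) in immune and 0.51 (0.07 to 0.95) in endothelial nuclei.

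The other family members were scarce. Trp63, which encodes the p53 relative p63, had 38 UMIs in WT and 2 in KO adipocytes, and Trp73 had 0 and 2, so that neither reached 50 UMIs. Trp53 was thus the 1 family gene with enough counts to compare in any of the 5 classes.

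Mdm2 (ENSMUSG00000020184, chromosome 10 from 117688875 to 117710758, minus strand), the ligase that marks p53 for degradation, was higher in KO in all 5 classes. Among these 5 it was past 2-fold in mural nuclei alone, where the call rested on 1 nucleus. Its log2 ratio was also past 2-fold in nuclei called by Schwann markers, at 1.08 (0.77 to 1.40), and in unassigned nuclei, at 1.08 (1.01 to 1.14). The Schwann marker class held 10544 CPM of adipocyte markers in WT and 7451 in KO, above its 2146 and 1528 CPM of Schwann markers. Over all kept nuclei, which mix the classes, the Mdm2 ratio was 1.03 (0.99 to 1.07). Of the 12458 KO Mdm2 UMIs there, 1169 lay in a set of 72 nuclei described below, 42 of them unassigned. All other KO nuclei were at 156.9 CPM of Mdm2, against 83.4 CPM in WT. The part of the set in the ratio of unassigned nuclei was not tested. In adipocytes Mdm2 went from 85.9 CPM (82.3 to 89.6) in WT to 155 CPM (146 to 163) in KO, a log2 ratio of 0.85 (0.75 to 0.95). Mural nuclei had 69.9 CPM (61.6 to 78.9) and 168 CPM (150 to 188), a log2 ratio of 1.26 (1.02 to 1.51). In the KO mural nuclei 1 nucleus held 59 of the 308 Mdm2 UMIs, and without it the ratio was 0.96 (0.70 to 1.22). The Mdm2 ratio was smallest in immune nuclei, at 0.36 (0.19 to 0.53) and at -0.31 with the endothelial level subtracted, the class with the highest WT level, 137 CPM (122 to 154). In KO the levels in immune, mural and adipocyte nuclei had overlapping intervals between neighbours, and endothelial nuclei and ASPCs were lower, at 123 and 109 CPM. Mdm4, the relative of Mdm2 that also restrains p53, had a log2 ratio of 0.11 (0.03 to 0.19) in adipocytes.

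Of the genes for cell-cycle control, Cdkn1a and Ccng1 differed little. Cdkn1a (ENSMUSG00000023067, chromosome 17 from 29090976 to 29100727, plus strand) encodes p21, the inhibitor of cyclin-dependent kinases (CDKs) through which p53 arrests the cell cycle. It was at 35.5 CPM (33.2 to 37.9) in WT and 43.9 CPM (39.6 to 48.5) in KO adipocytes, a log2 ratio of 0.31 (0.13 to 0.48). Its ratio was 0.83 (0.38 to 1.28) in mural nuclei, and the intervals held 0 in ASPCs, endothelial and immune nuclei, at -0.51 (-1.16 to 0.18), -0.09 (-0.40 to 0.21) and -0.25 (-0.63 to 0.14). Endothelial nuclei had the highest Cdkn1a level in WT, 50.8 CPM (44.9 to 57.2), and in KO their 47.6 CPM overlapped with the level in adipocytes. Ccng1 (ENSMUSG00000020326, chromosome 11 from 40748552 to 40755311, minus strand), which encodes cyclin G1, an adaptor that acts on Mdm2, was nearly even. Its levels ran from 12.5 to 16.9 CPM over both libraries and the 5 classes, and every interval of its ratio held 0. Cdkn1a and Ccng1 are the genes whose promoter windows above held the consensus.

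The pro-apoptotic genes Eda2r and Bbc3 were past 2-fold in adipocytes. Eda2r (ENSMUSG00000034457, X chromosome from 97333840 to 97377216, minus strand) encodes the receptor of ectodysplasin A2, of the tumour necrosis factor receptor family, and had the largest ratio of the 10. It had 23 UMIs, or 0.909 CPM (0.576 to 1.36), in WT and 173 UMIs, or 19.7 CPM (16.9 to 22.9), in KO adipocytes. The log2 ratio was 4.44 (3.81 to 5.14), or 21.7-fold. Eda2r UMIs were seen in 0.715% of the WT and 9.50% of the KO adipocytes, and in 0.0379% and 1.34% of the thinned ones.

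Eda2r was not silent in WT BAT, since ASPCs were at 10.5 CPM (5.42 to 18.3) and endothelial nuclei at 10.3 CPM (7.74 to 13.4), both above WT adipocytes. The WT ASPC level rested on 12 UMIs in 7 of 218 nuclei, with 5 of them in 1 nucleus. The Eda2r ratio in ASPCs was 0.11 (-0.78 to 1.13), and in endothelial nuclei 0.76 (0.18 to 1.34), where 1 KO nucleus gave 17 of the 50 UMIs and the ratio without it was 0.16 (-0.51 to 0.81). WT immune and WT mural nuclei held 1 Eda2r UMI each, against 81 and 20 in KO, with log2 ratios of 3.19 (0.67 to 8.51) and 5.34 (2.70 to 10.71), the latter on under 50 UMIs. In KO, adipocytes, endothelial nuclei, ASPCs and mural nuclei overlapped with their neighbours in level, and immune nuclei were lower at 4.11 CPM (3.26 to 5.10).

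Bbc3 (ENSMUSG00000002083, chromosome 7 from 16308393 to 16318205, plus strand) encodes Puma, a BH3-only protein that binds anti-apoptotic members of the Bcl2 family. It was at 5.65 CPM (4.76 to 6.66) in WT and 13.5 CPM (11.1 to 16.1) in KO adipocytes, a log2 ratio of 1.25 (0.89 to 1.61). With nuclei thinned to 1000 UMIs the ratio was 0.66, below 2-fold. In the other 4 classes the intervals of the Bbc3 ratio held 0, with under 50 UMIs in ASPCs and mural nuclei and ratios from -0.03 in endothelial to 0.66 in mural nuclei. KO adipocytes were the highest class for Bbc3, and apart from immune nuclei at 8.47 CPM (7.23 to 9.85).

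Zmat3 and Trp53inp1 were each at least 2-fold higher in KO in 4 of the 5 classes. Trp53, which passed in 3, and Mdm2, which passed in 1, were the other genes with the interval above 0 in all 5 classes, and for Trp53 in endothelial nuclei the interval held 0 without the KO nucleus with most Trp53 UMIs, at 0.40 (-0.05 to 0.85). Zmat3 (ENSMUSG00000027663, chromosome 3 from 32334792 to 32366014, minus strand), an RNA-binding zinc finger protein, was at 12.0 CPM (10.7 to 13.4) in WT and 62.7 CPM (57.6 to 68.2) in KO adipocytes, a log2 ratio of 2.38 (2.18 to 2.59). Its ratios elsewhere were 1.70 (1.03 to 2.47) in immune, 1.40 (0.84 to 1.96) in mural, 1.22 (0.65 to 1.81) in endothelial nuclei and 0.88 (0.19 to 1.64) in ASPCs. WT levels of Zmat3 lay between 8.10 and 16.6 CPM with overlaps between neighbours, and in KO adipocytes were apart from mural nuclei, the next class, at 35.4 CPM (27.3 to 45.1).

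Trp53inp1 (ENSMUSG00000028211, chromosome 4 from 11156431 to 11174379, plus strand) encodes a stress protein that takes part in autophagy and in p53-dependent death. In adipocytes it was at 68.2 CPM (65.1 to 71.5) in WT and 204 CPM (195 to 214) in KO, a log2 ratio of 1.58 (1.49 to 1.68). Its UMIs were seen in 6.25% of the WT and 16.1% of the KO adipocytes thinned to 1000 UMIs. In endothelial nuclei it went from 25.2 CPM (21.1 to 29.8) to 85.8 CPM (75.5 to 97.2), a ratio of 1.77 (1.46 to 2.08) that overlapped with that in adipocytes. It was 1.22 (0.74 to 1.73) in ASPCs, 1.13 (0.84 to 1.43) in mural and 0.81 (0.51 to 1.12) in immune nuclei, and adipocytes were the highest class in both libraries. In ASPCs 1 KO nucleus held 67 of the 484 Trp53inp1 UMIs, and without it the ratio was 1.00 (0.52 to 1.52). In mural nuclei 1 KO nucleus held 34 of the 198 UMIs, and without it the ratio was 0.91 (0.59 to 1.22), below 2-fold.

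Sesn1 and Phlda3 were below 2-fold everywhere. Sesn1 (ENSMUSG00000038332, chromosome 10 from 41809935 to 41908424, plus strand) encodes sestrin 1, a stress protein that restrains the growth kinase mTORC1. It was at 98.9 CPM (95.1 to 103) in WT and 110 CPM (103 to 117) in KO adipocytes, a log2 ratio of 0.15 (0.04 to 0.26). Immune nuclei had the highest level of Sesn1 in both libraries, apart from all other classes, with 210 CPM (192 to 230) in WT and 267 CPM (260 to 274) in KO. Over all kept nuclei the Sesn1 ratio was 0.75 (0.71 to 0.78), larger than in any of the 5 classes, where it ran from 0.09 to 0.44, and immune nuclei were 3.63% of kept WT and 31.4% of kept KO nuclei. Phlda3 (ENSMUSG00000041801, chromosome 1 from 135766119 to 135769136, plus strand), whose protein keeps the kinase Akt from the membrane, was at 26.2 CPM (24.3 to 28.3) and 34.9 CPM (31.1 to 39.0) in adipocytes, a log2 ratio of 0.41 (0.21 to 0.61). Its ratio was 0.92 (0.42 to 1.41) in mural nuclei and -0.25 (-0.91 to 0.48) in immune nuclei. Over all kept nuclei Phlda3 had a ratio of -0.10 (-0.20 to -0.01), opposite in sign to adipocytes.

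**Figure D2:**
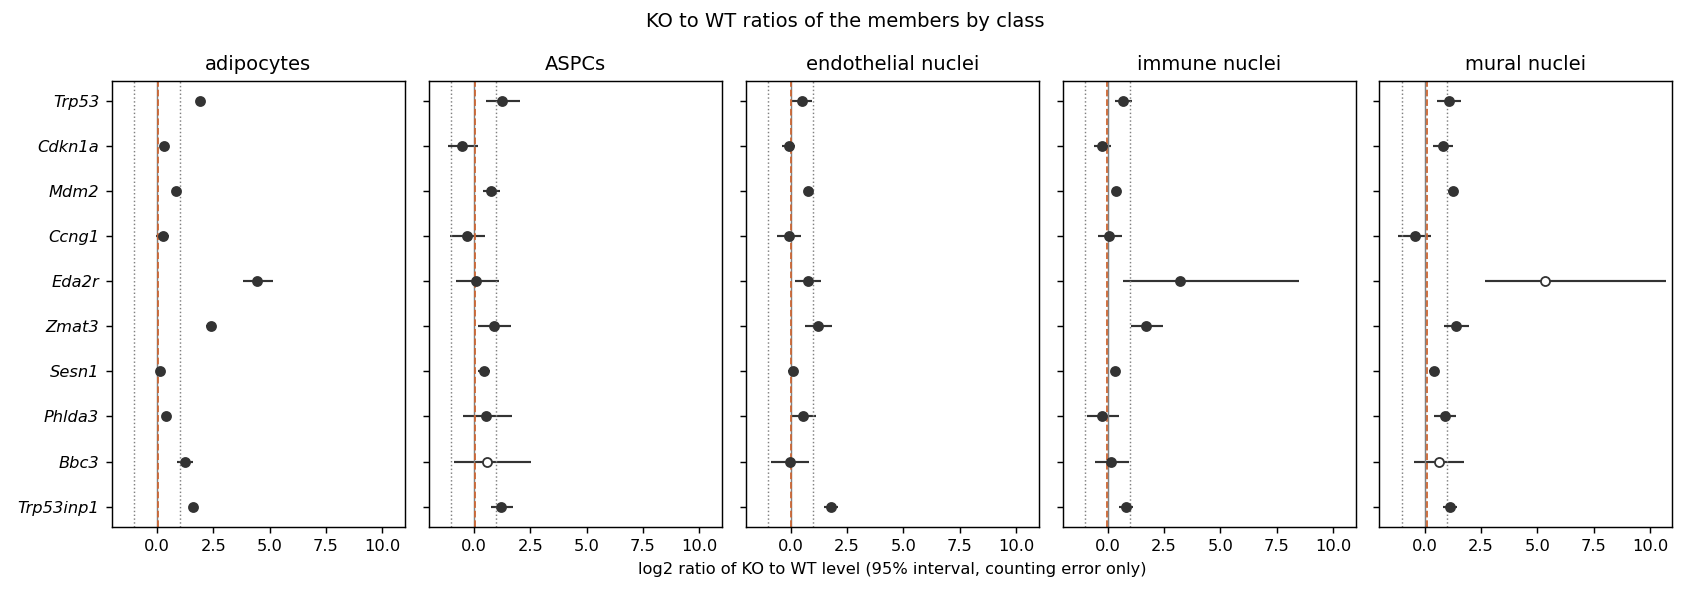
Ratio of KO to WT level on the log2 scale (x axis) for the 10 genes (y axis) in 5 classes, with 95% intervals for counting error, grey dotted lines at 2-fold and an orange dashed line at the median of all genes. Open points had under 50 UMIs over both libraries. The intervals of Trp53, Mdm2, Zmat3 and Trp53inp1 lie to the right of 0 in each panel, and Ccng1 lies at 0 within its interval in each.

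A smaller share of the measured genes passed 2-fold in ASPCs, endothelial and immune nuclei than in adipocytes, but not in mural nuclei. In ASPCs 2 of 9 genes with at least 50 UMIs were at least 2-fold higher (Trp53 and Trp53inp1), against 7.5% of all genes higher and 10.4% lower. In endothelial nuclei it was 2 of 10 (Zmat3 and Trp53inp1), against 3.39% higher and 11.9% lower. In immune nuclei it was 2 of 10 (Eda2r and Zmat3), against 6.37% higher and 10.6% lower. Mural nuclei had 4 of 8 (Trp53, Mdm2, Zmat3 and Trp53inp1), against 7.79% higher and 11.2% lower. No member was at least 2-fold lower in any class. Median log2 ratios of the measured members were 0.53 for ASPCs, 0.54 for endothelial, 0.35 for immune and 1.01 for mural nuclei, and those of all genes were 0.04, -0.01, -0.02 and 0.10. With the KO nucleus richest in each gene left out, Trp53 and Zmat3 were the 2 members that passed in mural nuclei. The counts in ASPCs and mural nuclei also moved with the way in which classes were called. With each nucleus given to the list with the largest raw marker sum, 0 of 9 members passed in ASPCs and 0 of 2 in mural nuclei. Of all genes, 4.77% and 4.69% were at least 2-fold higher there.

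Counted per nucleus at 1000 UMIs, a mean of 0.337 of the 10 genes was detected in WT and 0.600 in KO adipocytes. At least 3 of them were seen together in 0.265% of WT and 1.70% of KO adipocytes, and none in 70.9% and 53.8%. In the other classes the mean ran from 0.276 to 0.457 in WT and from 0.391 to 0.547 in KO. The thinning left out 156 WT and 19 KO adipocytes with fewer UMIs, and without it the means were 1.98 and 2.75.

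Adipocytes were then divided by markers to see where the genes stood. White adipocyte markers (Lep, Slc7a10, Nnat and Npr3) led in 933 WT and 404 KO nuclei, the genes Trib3, Marc1 and Mreg, which the study names for stressed KO adipocytes and which are therefore not independent of these libraries, in 11 WT and 284 KO nuclei, and neither in 1854 and 449. The log2 ratio of Trp53 was 1.71 (1.41 to 2.01) in nuclei led by white markers and 1.85 (1.54 to 2.16) in those led by neither. Zmat3 had 2.14 (1.84 to 2.44) and 2.43 (2.09 to 2.77). Trp53inp1 had 1.38 (1.22 to 1.53) and 1.73 (1.58 to 1.87), and Mdm2 had 0.63 (0.47 to 0.79) and 0.98 (0.82 to 1.13), in both cases without overlap of the intervals. Depth differed too, with medians of 8910 UMIs in WT and 7359 in KO nuclei led by white markers, and 6536 and 5177 in those led by neither. The part of depth in these differences was not tested. A list led where it held at least 2 UMIs and at least 2 times those of the other list. The higher levels in KO adipocytes were therefore also measured in nuclei not led by Trib3, Marc1 and Mreg. Such nuclei may still hold UMIs of these 3 genes.

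Within the KO library, the 284 nuclei led by Trib3, Marc1 and Mreg had more Trp53 than those led by white markers, 70.7 against 50.1 CPM, a log2 ratio of 0.50 (0.18 to 0.82). Zmat3 was higher by 0.44 (0.14 to 0.74), Mdm2 by 0.38 (0.18 to 0.58) and Trp53inp1 by 0.32 (0.15 to 0.49). Sesn1 was lower, with a log2 ratio of -0.55 (-0.80 to -0.30), and Cdkn1a was at 42.7 and 42.1 CPM, a log2 ratio of 0.02 (-0.37 to 0.40). Against the 449 KO nuclei led by neither list, Trp53 was higher by 0.38 (0.06 to 0.70) and Zmat3 by 0.46 (0.15 to 0.77). Mdm2 and Trp53inp1 had log2 ratios of -0.04 (-0.24 to 0.15) and -0.07 (-0.24 to 0.10) there, with intervals that held 0. None of these differences reached 2-fold.

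**Figure D3:**
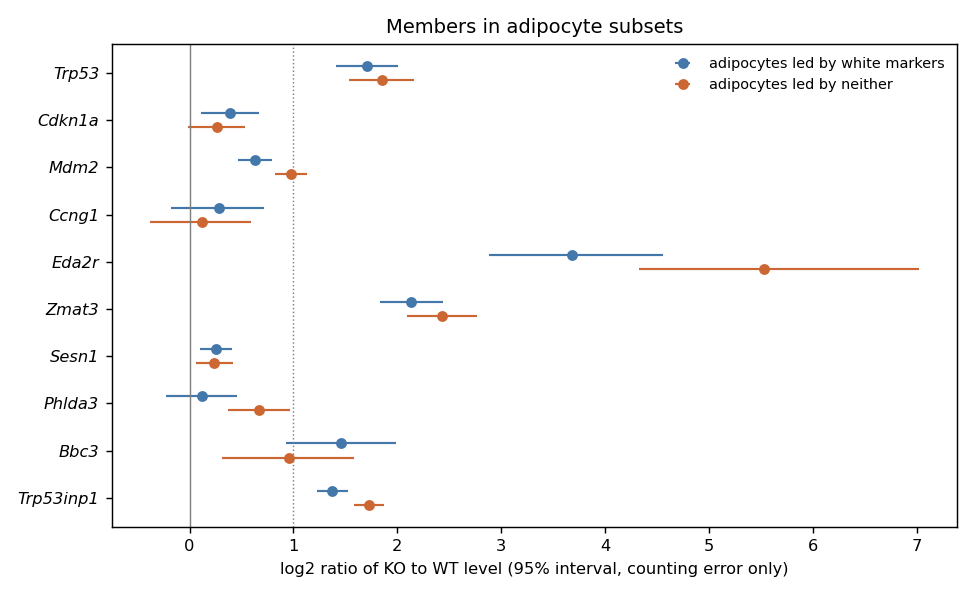
Ratio of KO to WT level on the log2 scale (x axis) for the 10 genes (y axis) in adipocytes led by white markers (blue) and in those led by neither white markers nor Trib3, Marc1 and Mreg (orange), with 95% intervals for counting error. Both subsets place Eda2r and Zmat3 farthest to the right, with Eda2r at 3.68 and 5.53.

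Immune nuclei were mostly led by macrophage markers, 401 in WT and 3072 in KO, and there Zmat3 had a log2 ratio of 1.90 (1.17 to 2.75), Trp53 0.80 (0.41 to 1.22) and Cdkn1a -0.32 (-0.70 to 0.08). Nuclei with at least 3 UMIs of mitotic genes numbered 41 in WT and 356 in KO among the immune nuclei. In KO the mitotic immune nuclei had more Cdkn1a than the others, 37.9 against 22.1 CPM, a log2 ratio of 0.78 (0.48 to 1.07). Trp53inp1 and Mdm2 were lower there, at -0.27 (-0.48 to -0.07) and -0.18 (-0.31 to -0.05), and Trp53 was at 0.08 (-0.16 to 0.32). Cdkn1a thus differed from Mdm2 and Trp53inp1 in sign within the same nuclei.

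A small set of KO nuclei had more Mdm2 and Trp53inp1 RNA than any of the 5 classes. It was found after the values had been seen, when the nuclei called by skeletal muscle markers (123 in WT, 50 in KO) showed 1159 CPM (1059 to 1265) of Mdm2 and 805 CPM (722 to 894) of Trp53inp1 in KO. Nuclei with at least 3 UMIs of Saxo1, Tph2 and Tnni1, which are genes of cilia, neuronal serotonin synthesis and slow muscle fibres, numbered 1 in WT and 72 in KO, where 1 nucleus held 389 of the 560 Saxo1 UMIs. Of the 72, 18 had been called by skeletal muscle markers, 5 as adipocytes, 3 as immune nuclei, 2 as ASPCs and 2 by Schwann markers, and 42 were unassigned. Without them the 32 other KO nuclei of the muscle marker class had 179 CPM (127 to 246) of Mdm2 and 372 CPM (295 to 464) of Trp53inp1, the latter still above each of the 5 classes. Because 18 of its 50 KO nuclei belong to this set, the class is not used as skeletal muscle here.

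In the 72 nuclei, 8 of the 10 genes were at least 2-fold higher than in the other 1132 KO adipocytes, and 0 were at least 2-fold lower. Of the 10821 genes with at least 50 UMIs, 20.8% were higher and 12.5% lower. Mdm2 and Trp53inp1, whose levels led to the set, are among the 8, so the count is not independent of how the set was found. With 5 of the 72 called as adipocytes, the nuclei compared are also unlike in class. Mdm2 stood at 951 against 151 CPM, 6.28-fold (5.80 to 6.80), and was found in 67 of the 72 nuclei. In 1 of these nuclei lay 161 of the 1169 Mdm2 UMIs. Eda2r was at 86.2 against 19.7 CPM, 4.38-fold (3.41 to 5.62). Ccng1, nearly even between WT and KO in the 5 classes, was at 61.0 against 16.1 CPM, 3.79-fold (2.82 to 5.05), and Cdkn1a at 122 against 43.4 CPM, 2.81-fold (2.31 to 3.41). Trp53inp1 was 3.25-fold (2.99 to 3.54), Trp53 2.88-fold (2.43 to 3.40), Zmat3 2.55-fold (2.15 to 3.01) and Bbc3 2.48-fold (1.69 to 3.56) higher. The genes that did not pass were Sesn1, at 0.952-fold (0.786 to 1.15), and Phlda3, at 1.16-fold (0.844 to 1.57).

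Other values of these nuclei stand beside that result. Srsf1 was at 60.2 CPM, 1.07-fold (0.826 to 1.37) the level of the other KO adipocytes. Depth was a median of 11156 UMIs, and marker sums were mixed, with 4822 CPM of adipocyte, 2157 of ASPC and 2269 of immune markers against 15049, 838 and 364 in the other KO adipocytes. The part of mixed droplets in the set was not tested. The target Trp53cor1 was lower there, at 0.386-fold (0.292 to 0.502). Of 29 other p53 targets with enough counts 13 were at least 2-fold higher and 4 lower, beside 20.8% and 12.5% of all genes.

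**Figure D4:**
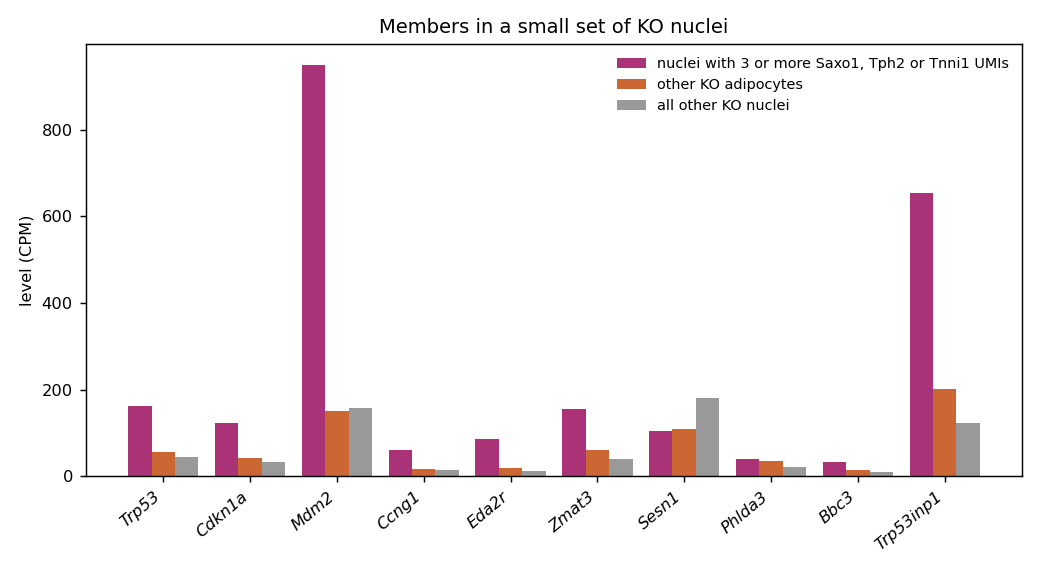
Levels of the 10 genes (y axis, CPM, from 0) in the 72 KO nuclei with at least 3 UMIs of Saxo1, Tph2 and Tnni1 (purple), in the other 1132 KO adipocytes (orange) and in all other KO nuclei (grey). Mdm2, at 951 CPM, and Trp53inp1, at 654 CPM, are the tallest purple bars, and for Sesn1 the purple bar is no taller than the orange one.

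Some single nuclei were rich in these RNAs. The KO immune nucleus with most UMIs of the 10 genes held 102 of Trp53inp1 and 58 of Mdm2 among 12046 UMIs, against 2 of Srsf1. The corresponding KO ASPC nucleus held 67 and 41 among 5961 UMIs, and the KO endothelial one 25 and 41 among 13765. In WT the highest sum was 53 UMIs over all 10 genes, in an adipocyte nucleus of 115312 UMIs. Leaving out the top nucleus of each class and library took Trp53inp1 in endothelial nuclei to 1.63 (1.31 to 1.95) and Zmat3 there to 1.07 (0.47 to 1.68). It took Trp53inp1 below 2-fold in ASPCs, at 0.99 (0.50 to 1.52), and in mural nuclei, at 0.92 (0.61 to 1.24).

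Other known p53 targets were read from a list of 40 genes, chosen with earlier results of these data known. In adipocytes 33 of them had at least 50 UMIs. Of these, 17 were at least 2-fold higher and 4 at least 2-fold lower in KO, beside 17.4% and 17.3% of all genes. Their median log2 ratio was 1.08. The largest ratios were those of Psrc1, a spindle protein gene, with 2 UMIs in WT and 102 in KO, at 7.20 (5.31 to 10.27), of Gdf15, a secreted stress factor, at 6.08 (5.17 to 7.16), and of Trp53cor1, the noncoding RNA also called lincRNA-p21, at 4.28 (4.04 to 4.53). Gdf15 was at 0.395 CPM in WT and 26.7 CPM in KO adipocytes, and Trp53cor1 at 6.36 and 124 CPM. Trp53cor1 lies 11796 bp from Cdkn1a on the other strand, and the 2 neighbours had log2 ratios of 4.28 and 0.31. Its locus overlaps a counted noncoding gene on the opposite strand over 2738 bp, and whether counting used strand is not stated. The smallest ratios were those of Trp53i11 at -3.77 (-6.85 to -1.87), with 79 and 2 UMIs, Triap1 at -1.37 (-2.02 to -0.78) and Trp53i13 at -1.20 (-1.90 to -0.56). Elsewhere, ASPCs had 3 of 27 genes of this list at least 2-fold higher and 0 lower, beside 7.5% of all genes higher. Endothelial nuclei had 3 of 27 higher and 2 lower, beside 3.39%, immune nuclei 3 of 35 higher and 1 lower, beside 6.37%, and mural nuclei 7 of 26 higher and 1 lower, beside 7.79%.

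**Figure D5:**
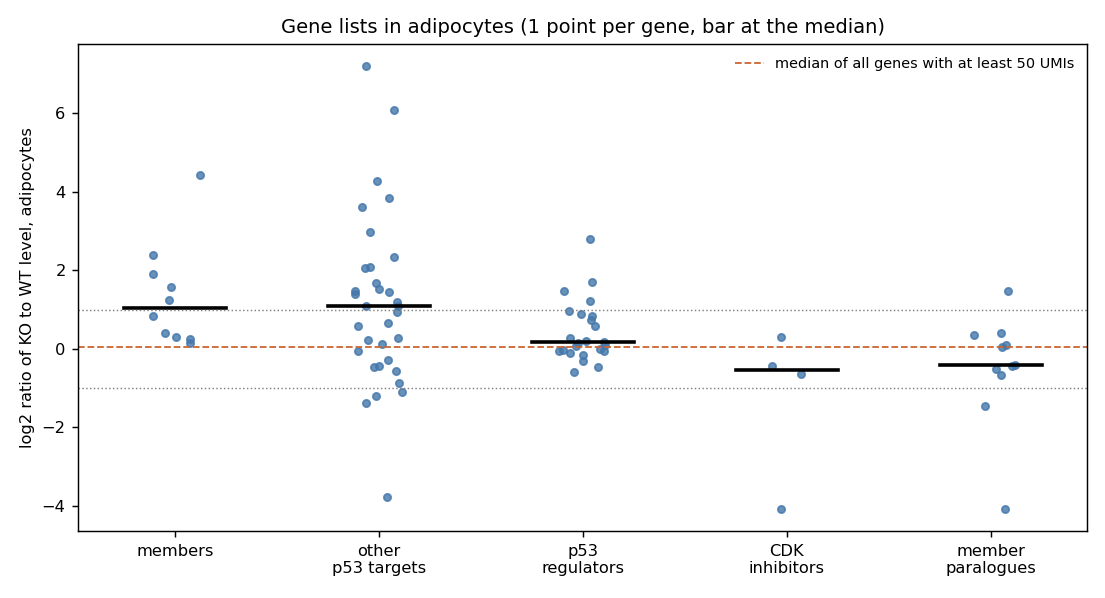
Ratio of KO to WT level in adipocytes on the log2 scale (y axis) for each gene with at least 50 UMIs in 5 lists (x axis, 1 point per gene, with sideways spread for legibility), with black bars at list medians, grey dotted lines at 2-fold and an orange dashed line at the median of all genes, 0.04. The medians are 1.05 for the 10 genes, 1.08 for other p53 targets and 0.17 for regulators of p53.

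Genes that act on p53 were nearer to the rest of the genome. Of 24 measured regulators in adipocytes, 4 were at least 2-fold higher, a share near the 17.4% of all genes, and 0 lower, with a median log2 ratio of 0.17. Those higher were the checkpoint kinases Chek1, at 2.79 (2.10 to 3.53) on 25 and 60 UMIs, and Chek2, named after its value was seen, at 1.23 (0.72 to 1.74), the ribosomal protein Rpl11, which can bind Mdm2, at 1.71 (1.58 to 1.85), and Zfp385a at 1.47 (0.87 to 2.07). The smallest ratios were those of Trp53bp2 at -0.58 (-0.75 to -0.42), Dyrk2 at -0.47 (-0.68 to -0.27) and Ppp1r13l at -0.30 (-1.09 to 0.43).

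Relatives of the members mostly had other ratios. Of 11 measured paralogues in adipocytes, 1 was at least 2-fold higher and 2 at least 2-fold lower, beside 17.4% and 17.3% of all genes. The higher one was Sesn2, of the same family as Sesn1, at 1.47 (1.26 to 1.67). Ccng2, the cyclin G2 gene, was lower at -1.45 (-1.70 to -1.21), and Trp53inp2 was at -0.66 (-0.78 to -0.55). Zmat1 and Zmat5, which share the zinc finger family with Zmat3, were at 0.41 (0.26 to 0.57) and 0.35 (0.08 to 0.61). Among the 4 measured CDK inhibitors, Cdkn1a was the 1 with a ratio above 0, while Cdkn1b was at -0.45 (-0.80 to -0.10), Cdkn2c at -0.63 (-0.94 to -0.33) and Cdkn1c, with 49 and 1 UMIs, at -4.09 (-9.42 to -1.54).

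The genes whose levels ran most like those of a member over 14 points (7 classes in 2 libraries) were taken by Pearson correlation of log2(CPM + 1), as a description. For Mdm2 they were Cpsf2, Maml1 and Gm31718, at 0.978 to 0.971. For Trp53 they were Chd5, Atp8a2 and Manbal, at 0.937 to 0.934, and for Cdkn1a Ssr2, Ran and Pdcd6, at 0.910 to 0.888. Points of 1 library share its depth and free RNA, and the KO muscle marker class stands far from the rest for Mdm2, Trp53 and Cdkn1a.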

How the data were processed

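Nuclei from BAT of 1 WT and 1 KO group of mice were profiled with a 10x 3′ kit. The authors deposited UMI counts per gene and barcode, made with Cell Ranger 5.0.0 per the file headers and not normalized, and Seurat 3.1.1 is named in the submitters' processing notes. Whether intronic reads were counted, and by strand, is not stated. A nucleus was kept if it had 200 genes or more, if its UMI and gene numbers on the log scale lay no farther than 3 median absolute deviations from its library, and if mitochondrial UMIs made up at most 10%, and no doublet caller was run. A nucleus was given to the marker list with the largest share of its UMIs relative to that list's mean share, where it held at least 3 UMIs and led the next list by at least 2 times. Levels are CPM of summed counts with Poisson intervals, ratios have exact conditional binomial 95% intervals, and shares of nuclei were also taken after thinning to 1000 UMIs. Genes with at least 50 UMIs over both libraries were compared at a 2-fold limit, without a test. Beside the 10 genes, each list was to give its 3 largest and 3 smallest ratios in adipocytes. The members and lists were chosen with earlier results of these data known. Gene places are GRCm38, GENCODE vM21. Of 19 alternatives, 15 were planned and 4 chosen after seeing the data. Scripts used Python 3.11.15, numpy 2.4.6, scipy 1.17.1, pandas 2.3.3 and matplotlib 3.10.9, and were tested on simulated data.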

Additional observations from a re-analysis of the deposited data

How the results depend on the processing

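Over 772 alternative values of single genes, 691 stayed within the counting interval of the reported ratio, and 37 had the other sign, 26 of them where that interval held 0. Of the other 11, 2 belong to ratios past 2-fold, which were Trp53 in mural nuclei, at -0.12 with classes set by the largest raw marker sum, and Trp53inp1 in mural nuclei, at -0.12 with the endothelial level subtracted. The rest were Eda2r in endothelial nuclei (-0.53 when thinned, -0.31 without the 5% of nuclei with most UMIs, -0.10 with means over nuclei), Phlda3 in mural nuclei (-0.64, raw sum) and endothelial nuclei (-0.22, thinned), Mdm2 in immune nuclei (-0.31, subtraction), Cdkn1a in mural nuclei (-0.05, raw sum), Sesn1 in ASPCs (-0.02, lead of 4 times) and Trp53 in endothelial nuclei (-0.02, thinned). In adipocytes the log2 ratio ran from 1.73 to 2.11 for Trp53, from 3.83 to 5.21 for Eda2r, from 2.12 to 3.70 for Zmat3 and from 1.40 to 1.79 for Trp53inp1. The count of members at least 2-fold higher in KO adipocytes was 3 of 8 with thinned nuclei, beside 13.7% of all genes. With the endothelial level subtracted it was 3 of 4, beside 30.9% of all genes. In ASPCs it was 1 with 500 to 5000 genes per nucleus, with a lead of 4 times, with at least 6 marker UMIs and without the nucleus with most member UMIs. The shares of all genes at least 2-fold higher there ran from 6.41% to 7.61%. The count was 0 with the raw marker sum (4.77% of all genes), with the mean share within each library (13.3%) and with the endothelial level subtracted (1 gene measured, 20.8%). With means over nuclei it was 4 (9.21%). In endothelial nuclei the count was 1 when thinned, beside 2.88% of all genes. It was also 1 without the 5% of nuclei with most UMIs (3.16%) and with a minimum of 200 UMIs (2.14%). In immune nuclei it was 1 when thinned (6.67%) and with that minimum (4.45%). In mural nuclei it was 2 with 500 to 5000 genes (5.91%) or a minimum of 200 UMIs (5.74%). It was also 2 without the KO nucleus with most UMIs of the gene. With the raw marker sum (4.69%) or thinning (5.45%) it was 0. A member was 2-fold lower in 1 case each, for ASPCs without the 5% of nuclei with most UMIs, for immune nuclei with the mean share within each library and for mural nuclei with means over nuclei. In these cases 9.74%, 19.4% and 12.7% of all genes were at least 2-fold lower. Other p53 targets in adipocytes were higher for 5 of 7 with the endothelial level subtracted and 9 of 21 when thinned, beside 30.9% and 13.7% of all genes. They were lower for 2 with a lead of 4 times, the raw sum, the mean within each library, thinning or a minimum of 200 UMIs. The shares of all genes lower there ran from 13.8% to 17.6%. With the endothelial level subtracted 0 were lower, beside 26.1% of all genes. Regulators were higher for 1 with a lead of 4 times (15.7% of all genes) or the minimum of 200 UMIs (14.4%). They were higher for 2 with subtraction (30.9%) or thinning (13.7%), and lower for 2 with subtraction (26.1%). Thinning, subtraction and the higher minimum leave fewer genes to count, and for the other alternatives the cause was not tested. With the mean share within each library, 23.2% of all genes in adipocytes were at least 2-fold higher and 14.0% lower. No paired analysis was possible because each genotype had 1 library.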
